A study of Mus musculus with 41 samples.

Results

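MEEC, a line of embryonic endocardial cells from wild-type mice, had been grown in contact with stromal cells that display one of 2 Notch ligands, and the transcriptome over one ligand was set against the transcriptome over the other. The comparison takes the 6 libraries of MEEC on OP9-Dll4 cells (3 at 6 h, 3 at 24 h) against the 6 libraries on OP9-Jag1 cells (3 at 6 h, 3 at 24 h), 12 of the 41 libraries of the series, chosen by their feeder and time alone. OP9 is a mouse bone marrow stromal line, made here to express Dll4 or Jag1, and the control line OP9-GFP expresses GFP. Its 6 libraries (3 at 6 h, 3 at 24 h) are shown as a description only. A further experiment of the same study offers the same pair of ligands without any feeder: MEEC on wells coated with the recombinant protein rDLL4 or rJAG1 in the presence of the vehicle DMSO (3 libraries each), beside 3 libraries with DMSO and no ligand. The rDLL4 protein carries a His tag and rJAG1 an Fc tag, and these cells spent 24 h on the wells before 14 h in serum-free medium. Libraries of rDLL4 and of rJAG1 with the inhibitor RO4929097 (3 each) are not compared here and only share the fit of that experiment.

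Notch is a receptor that is cut after it binds a ligand on a neighbouring cell. The freed intracellular domain enters the nucleus and, with the DNA-binding protein Rbpj, switches on target genes such as the Hes and Hey repressors and the feedback inhibitor Nrarp. In the endocardium, which lines the heart from within, Dll4 and Jag1 are both ligands of this pathway, which acts in the formation of trabeculae and valves.

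The model has limits that bear on every value below. The amount of ligand that each feeder line displays, and whether MEEC were separated from the feeder before RNA extraction, are not given in the sources used here, so a library can hold RNA of both cells. In bulk RNA, fewer cells of a type and less RNA per cell cannot be told apart. MEEC were laid at a higher density for 6 h than for 24 h, so time and density cannot be told apart. Of the 26 endothelial and endocardial markers, 15 were measured, and Pecam1, Cdh5 and Emcn were among the 11 not analysed here. The summed signal of the 15 was 370 to 432 in OP9-Dll4 libraries and 353 to 417 in OP9-Jag1 libraries. The 16 measured OP9 stromal and adipocyte markers summed to 1193 to 1749 in OP9-Dll4 libraries and 1218 to 1644 in OP9-Jag1 libraries. Jag1 mRNA overlapped between the feeders: its signal was 43.1 to 61.7 in OP9-Dll4 libraries and 47.9 to 67.9 in OP9-Jag1 libraries (log2 difference -0.10, 95% interval -0.19 to -0.02, adjusted p = 0.44), so it does not check the labels. Dll4 mRNA was not analysed here. The libraries held 14.1 to 16.8 M reads.

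A set of 4 OP9-Dll4 libraries stood apart from all other co-culture libraries in a small set of heart muscle and blood transcripts. Myh7, the slow cardiac myosin heavy chain, had 0, 2 and 86 reads in OP9-Dll4 libraries 1, 2 and 3 at 6 h and 265, 96 and 98 reads at 24 h, against at most 1 read in any OP9-Jag1 library and at most 2 in any OP9-GFP library. Actc1, cardiac alpha-actin, had 40 reads in OP9-Dll4 library 3 at 6 h and 125, 54 and 54 at 24 h, and 0 in every other co-culture library. The globin gene Hbb-bs had 16 reads in that 6 h library and 75, 16 and 27 at 24 h, against at most 1 elsewhere. The ratio of Myh7 to Actc1 reads lay between 1.78 and 2.15 in the 4 libraries, and that of Actc1 to Myl2, a ventricular myosin light chain, was 3.64 in the 6 h library and 1.93 to 2.16 in those of 24 h. Summed over the 9 measured cardiomyocyte markers, the signal was 40.6 to 58.8 at 6 h and 62.6 to 97.8 at 24 h in OP9-Dll4 libraries, against 43.6 to 64.6 and 36.0 to 46.5 in OP9-Jag1 libraries. The part of these transcripts in other results was not tested. Leaving the cardiomyocyte, erythroid and leukocyte marker genes out of the fit gave 8 genes higher and 44 lower over both times, in place of 9 and 44. This drops those genes only and leaves the values of all other genes unchanged. It therefore cannot show whether other calls depend on what these 4 libraries hold.

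Throughout, values are the authors' normalized signal, which is scaled to library size. Libraries with the same number and time were treated as a pair, and differences are OP9-Dll4 minus OP9-Jag1 on the log2(signal + 1) scale, with standard errors. Adding 1 makes the change of weakly expressed genes look smaller than it is. Differences were tested with limma, and a gene was called at a Benjamini-Hochberg adjusted p under 0.05 over all 13886 genes. The labels do not state that replicate libraries are separate cultures. The p-values therefore reflect only how much these samples vary, and that variation may be technical.

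Over both times, 53 of 13886 genes were called (0.382%), 9 higher over OP9-Dll4 (0.0648%) and 44 lower (0.317%). The differences were small. The 44 lower genes differed by 0.15 to 0.84 on the log2 scale with a median of 0.27, and the 9 higher genes had a median of 0.25. The genes lower over OP9-Dll4 included Notch targets, a set of secreted factors and matrix genes, enzymes of cholesterol synthesis and interferon-stimulated genes. In 40 of the 44 lower genes all 6 pairs had the lower value in the OP9-Dll4 library, against 420 of all genes (3.02%), and in 7 of the 9 higher genes all 6 pairs had the higher value there, against 253 of all genes (1.82%). In either direction, 4.85% of all genes had 6 pairs of one sign. The genes were called on these same pair differences, so agreement among their pairs follows largely from the call and is not separate support. These counts rest on the pairing: without it 1 gene was called, Tuft1 (adjusted p = 0.043). Leaving out 1 library at a time left 19 to 51 genes, and 13 of the lower genes and 1 of the higher ones (Ltbp2) were called in all 12 such fits. A library without its partner drops out of the paired fit, so here and below the 12 fits are in effect 6.

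The promoters of 4 called genes are printed here because they belong to the 3 groups that recur below: Notch targets (Hey2, Nrarp), cholesterol synthesis (Hmgcs1) and the interferon response (Isg15). Each runs from 250 bases before to 50 bases after the annotated start, 5′ to 3′ along the gene, from RefSeq on build GRCm38.p6. Capitals in Hey2 mark TGGGAA, the core letters bound by Rbpj, which were searched in all 4 promoters and are left in lower case in the last 2. Capitals in Hmgcs1 mark TCACCCCA, letters of a sterol response element, and those in Isg15 mark an interferon-stimulated response element, searched as GAAA, any 2 bases and GAAA. All 3 were searched on both strands.
Hey2: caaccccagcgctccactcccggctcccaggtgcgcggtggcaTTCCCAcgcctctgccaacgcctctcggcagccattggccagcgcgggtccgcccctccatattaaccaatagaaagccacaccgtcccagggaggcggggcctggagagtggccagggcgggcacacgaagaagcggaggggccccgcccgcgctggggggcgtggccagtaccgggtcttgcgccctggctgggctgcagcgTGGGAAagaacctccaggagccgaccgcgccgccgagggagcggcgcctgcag
Nrarp: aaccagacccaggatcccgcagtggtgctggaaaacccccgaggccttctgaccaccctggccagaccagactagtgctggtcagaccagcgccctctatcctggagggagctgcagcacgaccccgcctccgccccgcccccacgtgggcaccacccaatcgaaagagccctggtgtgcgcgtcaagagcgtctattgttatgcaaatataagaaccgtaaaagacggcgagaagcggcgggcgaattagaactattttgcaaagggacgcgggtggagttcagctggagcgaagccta
Hmgcs1: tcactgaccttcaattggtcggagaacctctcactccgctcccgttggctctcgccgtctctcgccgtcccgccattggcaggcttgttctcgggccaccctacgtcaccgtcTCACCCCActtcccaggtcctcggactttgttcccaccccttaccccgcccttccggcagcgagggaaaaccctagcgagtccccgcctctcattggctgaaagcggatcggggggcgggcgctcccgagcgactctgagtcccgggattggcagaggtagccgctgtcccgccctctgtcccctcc
Isg15: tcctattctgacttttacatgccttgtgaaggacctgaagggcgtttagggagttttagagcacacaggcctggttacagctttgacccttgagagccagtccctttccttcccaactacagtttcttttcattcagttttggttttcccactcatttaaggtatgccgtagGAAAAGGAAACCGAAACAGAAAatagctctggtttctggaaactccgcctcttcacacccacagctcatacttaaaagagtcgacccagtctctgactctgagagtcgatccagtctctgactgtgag
Hey2 (chr10:30842734-30843033, minus strand) holds TGGGAA once on each strand, and Nrarp (chr2:25180508-25180807, plus strand) holds none in this window. Hmgcs1 and Isg15 each hold 2 copies as well. TGGGAA is short and occurs in 25.6% of the 32851 promoters in the table. Hmgcs1 (chr13:119690101-119690400, plus strand) holds 1 copy of TCACCCCA, which 1.56% of all promoters hold. Isg15 (chr4:156200769-156201068, minus strand) holds 3 overlapping copies of the interferon-stimulated response element in one run of capitals, and 3.44% of all promoters hold at least 1. Of the 44 lower genes, 26 had a promoter in the table, and of these 11 held TGGGAA, 1 held TCACCCCA and 4 held the interferon-stimulated response element. Of the 8 called cholesterol and fatty acid genes, 4 had a promoter there, and only 1, Hmgcs1, held TCACCCCA. Of the 4 called interferon-stimulated genes, 3 had one, and only 1, Isg15, held the response element. The printed promoters are thus not typical of these groups. Gene counts take any promoter of a gene, whereas the percentages are per promoter. These matches describe letters in a window and were not tested as binding sites.

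A part of the Notch target genes was lower over OP9-Dll4 than over OP9-Jag1. Of 6 measured targets, 3 were called lower, beside 44 of all 13886 genes (0.317%), and 0 higher. The median difference of the 6 was -0.29 against -0.0033 over all genes. The called ones were Nrarp, Hey1 and Hey2. The other 3, Hes1, Heyl and Bcl6, did not pass. On recovered reads edgeR called 3 of the 6 and DESeq2 2.

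Nrarp (chromosome 2) had a signal of 30.2, 11.7 and 18.4 in the OP9-Dll4 libraries at 6 h and 45.1, 26.1 and 28.4 at 24 h, against 39.7, 18.5 and 30.3 at 6 h and 57.1, 36.4 and 44.8 at 24 h in the OP9-Jag1 libraries. The ranges of the feeders overlapped, with libraries 1 high and libraries 2 low in both, while within each of the 6 pairs the OP9-Dll4 library was the lower one. The difference was -0.52 ± 0.05 over both times (adjusted p = 0.00024), with -0.56 ± 0.07 at 6 h and -0.48 ± 0.07 at 24 h, and it was called in all 12 fits that left out a library. In the OP9-GFP libraries Nrarp lay at 5.67 to 8.89 at 6 h and 7.95 to 9.81 at 24 h, below every library of either ligand.

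Hey1, a transcriptional repressor, had 3.96, 4.39 and 4.29 in the OP9-Dll4 libraries at 6 h and 4.45, 4.3 and 6.69 at 24 h, against 6.00, 6.99 and 4.94 at 6 h and 9.73, 8.57 and 11.3 at 24 h in the OP9-Jag1 libraries. Within each time the feeders did not overlap. Its difference was -0.62 ± 0.10 (adjusted p = 0.013), with -0.41 ± 0.12 at 6 h, where it did not pass (adjusted p = 0.21), and -0.83 ± 0.12 at 24 h (adjusted p = 0.0024). The change between the times was not called (adjusted p = 0.48). OP9-GFP libraries held 1.88 to 3.01 at 6 h and 1.70 to 2.14 at 24 h.

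Hey2, its close relative, had 13.8, 11.1 and 11.6 in the OP9-Dll4 libraries at 6 h and 21.0, 18.96 and 16.8 at 24 h, against 18.6, 16.0 and 14.3 at 6 h and 24.9, 23.9 and 20.2 at 24 h in the OP9-Jag1 libraries. All 3 OP9-Dll4 values at 6 h lay below the OP9-Jag1 values, whereas at 24 h OP9-Dll4 library 1 exceeded OP9-Jag1 library 3. The difference was -0.33 ± 0.05 over both times (adjusted p = 0.013). It passed at 6 h (-0.39 ± 0.07, adjusted p = 0.027) and not at 24 h (-0.27 ± 0.07, adjusted p = 0.15).

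Hes1, the other classical target, had differences of opposite sign at 6 h and 24 h, with an average near 0. Its signal was 58.2, 49.7 and 60.2 at 6 h and 62.6, 54.0 and 58.1 at 24 h in the OP9-Dll4 libraries, against 64.9, 56.9 and 62.6 at 6 h and 58.8, 51.4 and 56.6 at 24 h in the OP9-Jag1 libraries. In all 3 pairs the OP9-Dll4 library was the lower one at 6 h and the higher one at 24 h. The difference over both times was -0.03 ± 0.04 (95% interval -0.12 to 0.05, adjusted p = 0.9). It was -0.13 at 6 h (-0.23 to -0.03) and 0.07 at 24 h (-0.03 to 0.17), and was called at neither time. Heyl, near the detection floor of 0.179 to 0.221 signal that 3 reads allow, had 0.258 to 1.04 in OP9-Dll4 libraries and 0.521 to 2.44 in OP9-Jag1 libraries (-0.25 ± 0.15, adjusted p = 0.73). Its difference was 0.12 at 6 h (95% interval -0.25 to 0.49) and -0.61 at 24 h (-0.99 to -0.24, adjusted p = 0.18), and the change between the times was -0.73 (-1.26 to -0.20, adjusted p = 0.41). Bcl6 differed by -0.03 ± 0.08 (adjusted p = 0.96). Leaving out pair 2 at 24 h left only Nrarp called among the 6 targets.

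Upstream of these targets no difference was called. Of 5 measured ligand genes and 3 receptor genes, 0 were called in either direction with limma, edgeR or DESeq2 over both times, at 6 h or at 24 h, and over both times 1 ligand gene and 1 receptor gene had an unadjusted limma p under 0.05. The receptor gene Notch1 differed by -0.15 ± 0.07 over both times (95% interval -0.30 to 0.01), by 0.00 at 6 h (-0.19 to 0.19) and by -0.29 at 24 h (-0.48 to -0.10, adjusted p = 0.23). Over both times Notch2 differed by 0.03 ± 0.03 and Notch3, a low-signal gene, by -0.39 ± 0.12 (adjusted p = 0.23). Of 36 genes for Notch cleavage, glycosylation and the nuclear complex, 0 were called with any of these tools (4 at an unadjusted limma p under 0.05), and their median difference was -0.0094.

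**Figure D1:**
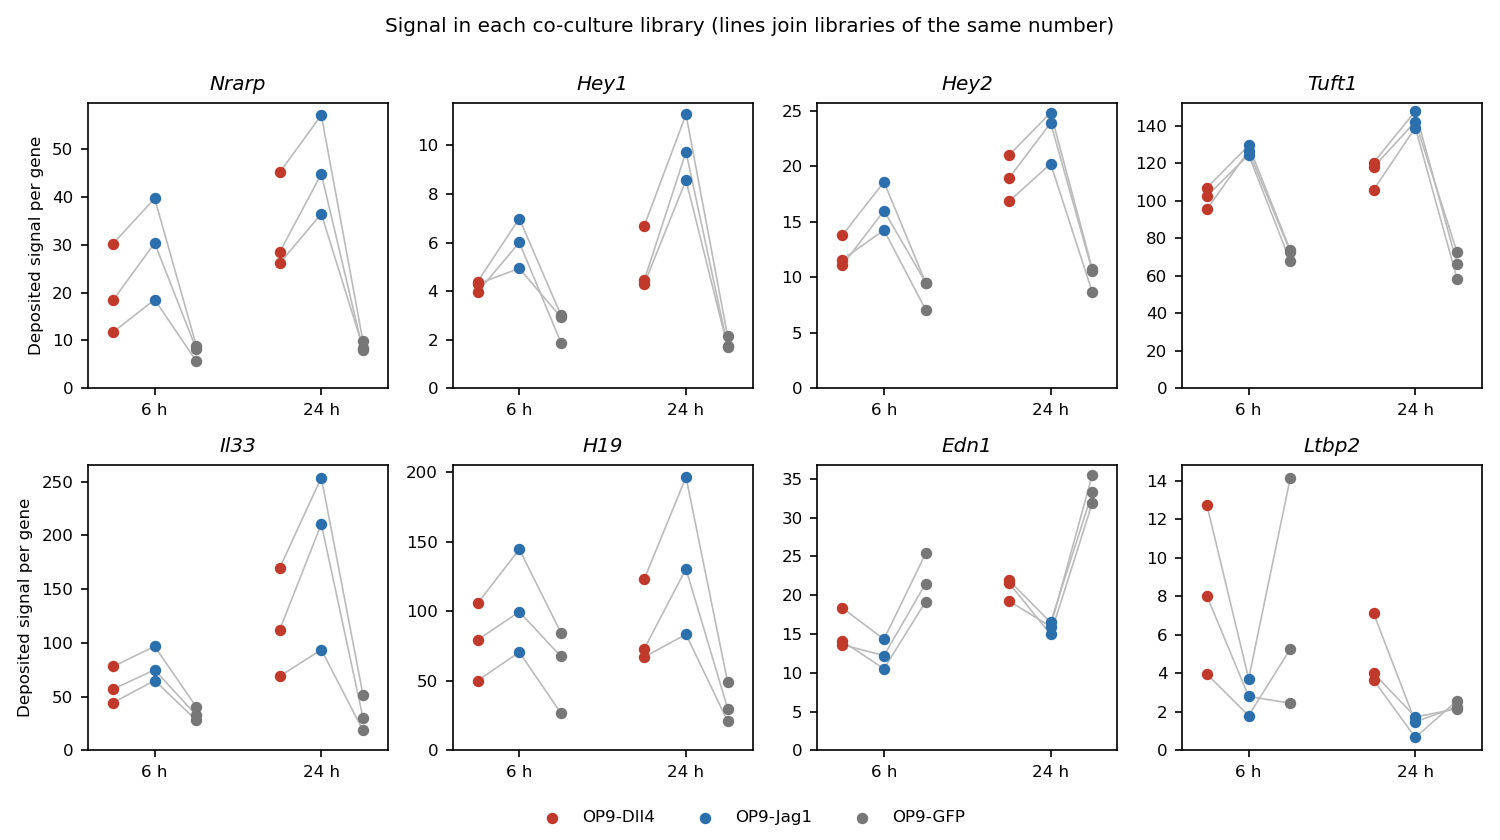
Deposited signal (y axis, linear, from 0) of 8 called genes in each co-culture library at 6 h and 24 h, with OP9-Dll4, OP9-Jag1 and OP9-GFP from left to right at each time and grey lines joining libraries of the same number. For the first 6 genes the OP9-Dll4 point lies below the OP9-Jag1 point on every line, and for Edn1 and Ltbp2 above it.

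Beyond the Notch targets, Tuft1, Il33 and H19 had small adjusted p-values and lower values over OP9-Dll4 in all 6 pairs. Tuft1, which encodes tuftelin, a protein first described in tooth enamel, had 107, 95.7 and 103 in the OP9-Dll4 libraries at 6 h and 120.5, 106 and 118 at 24 h, against 129.6, 127 and 125 at 6 h and 148, 139 and 142 at 24 h in the OP9-Jag1 libraries. No OP9-Dll4 library reached any OP9-Jag1 library, even across the times, and the OP9-GFP libraries lay lower still at 58.6 to 73.5. The difference was -0.32 ± 0.03 over both times (adjusted p = 0.00015) and was the same size at 6 h (-0.32 ± 0.04) and at 24 h (-0.32 ± 0.04).

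Il33, an alarmin of the interleukin-1 family, had 78.1, 44.4 and 57.0 at 6 h and 112, 69.0 and 169.7 at 24 h in the OP9-Dll4 libraries, against 96.8, 65.0 and 74.9 at 6 h and 211, 93.7 and 254 at 24 h in the OP9-Jag1 libraries. Its level varied between numbers more than between feeders, and every pair had the lower value over OP9-Dll4. The difference was -0.53 ± 0.06 (adjusted p = 0.00041). H19, an imprinted long noncoding RNA on chromosome 7, had 50.2, 106 and 79.5 at 6 h and 73.2, 67.3 and 123 at 24 h over OP9-Dll4, against 70.7, 145 and 99.8 at 6 h and 131, 83.5 and 197 at 24 h over OP9-Jag1. Again the groups overlapped and all 6 pairs went one way (-0.51 ± 0.06, adjusted p = 0.00041).

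The lower genes also held secreted factors, matrix genes and regulators. Secreted and matrix genes were not particular to them, since the higher genes described below held such genes too. Genes for diffusible signals included the Wnt agonist Rspo1 (-0.32 ± 0.04), the Wnt antagonist Sfrp4 (-0.27 ± 0.04) and Tgfb3 (-0.22 ± 0.04), each with all 6 pairs lower over OP9-Dll4 and each called in all 12 fits that left out a library. Matrix genes included Emilin2 (-0.41 ± 0.05), the basement membrane collagen gene Col18a1 (-0.34 ± 0.06) and the periostin gene Postn (-0.53 ± 0.10). Emilin2 was called in all 12 such fits, Col18a1 in 4 and Postn in 0. As lists, the 29 collagen and laminin genes had 1 member called lower and the 20 TGF-beta signalling genes 1, with medians of 0.012 and 0.0012. Of all 13886 genes, 0.317% were called lower and 0.0648% higher. The 19 elastic fibre genes had 1 called lower and 1 higher, and the 16 hyaluronan and versican genes 0 lower and 1 higher. The Wnt list lacks Rspo1 and Sfrp4. Of its 22 measured genes 0 were called with limma, edgeR or DESeq2 (2 at an unadjusted limma p under 0.05).

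Among intracellular regulators, the cyclic AMP phosphodiesterases Pde4b (-0.36 ± 0.05) and Pde3a (-0.40 ± 0.08), the pseudokinase gene Trib2 (-0.23 ± 0.03), the G1 cyclin gene Ccnd2 (-0.17 ± 0.03), the CDK inhibitor gene Cdkn2b (-0.17 ± 0.03) and the immediate early factor Egr1 (-0.30 ± 0.06) were lower over OP9-Dll4. The calls of Pde3a and Cdkn2b were lost with DESeq2 (adjusted p = 0.18 and 0.15) and in all 12 fits that left out a library. That of Egr1 was lost with edgeR (adjusted p = 0.056), with DESeq2 (adjusted p = 0.22) and in 10 of the 12 fits. Of 17 G1 cyclin and CDK inhibitor genes, 2 were called lower, against 0.317% of all genes. Of 30 genes for DNA replication and mitosis 0 were called with limma, edgeR or DESeq2 (3 at an unadjusted limma p under 0.05), with a median of -0.007. Of 25 genes of endothelial to mesenchymal transition 1 was called lower, against the same 0.317% of all genes. Of 15 endothelial and endocardial identity genes 0 were called with any of the 3 tools (2 at an unadjusted limma p under 0.05).

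The OP9-Dll4 mean lay between the OP9-Jag1 and OP9-GFP means for 22 of the 44 lower genes at 6 h and 29 at 24 h, and for 6 of the 9 higher genes at each time. The share of all genes with the mean there was not computed, so these counts cannot be set against a background. A graded response was not tested. Nrarp, Hey1, Hey2, Tuft1, Il33 and H19 had it there at both times.

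Few genes were higher over OP9-Dll4. Ltbp2, a gene of the latent TGF-beta binding protein family whose product lies on elastic microfibrils, had 8.02, 12.7 and 3.96 in the OP9-Dll4 libraries at 6 h and 4.01, 7.12 and 3.65 at 24 h, against 2.80, 3.73 and 1.81 at 6 h and 1.74, 1.48 and 0.671 at 24 h in the OP9-Jag1 libraries. The feeders did not overlap at either time (1.28 ± 0.12, adjusted p = 0.00015). OP9-GFP libraries spread from 2.45 to 14.2 at 6 h and from 2.16 to 2.59 at 24 h, so at 6 h OP9-GFP library 2 exceeded every OP9-Dll4 library.

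Edn1, which encodes the vasoconstrictor peptide endothelin-1, had 13.6, 18.3 and 14.1 at 6 h and 19.2, 21.9 and 21.6 at 24 h in the OP9-Dll4 libraries, against 12.2, 14.3 and 10.5 at 6 h and 15.9, 16.5 and 14.9 at 24 h in the OP9-Jag1 libraries. OP9-GFP libraries were above both, at 19.2 to 25.4 at 6 h and 31.9 to 35.5 at 24 h. All 6 pairs were higher over OP9-Dll4 (0.34 ± 0.06, adjusted p = 0.019). Cemip, which takes part in hyaluronan breakdown (0.25 ± 0.04), Csgalnact1, an enzyme of chondroitin sulfate synthesis (0.19 ± 0.04), the matrix receptor gene Antxr2 (0.22 ± 0.04) and Cdc42ep3, an effector of the GTPase Cdc42 (0.19 ± 0.04), also had all 6 pairs higher. Leaving out 1 library ended the call of Edn1 in 8 of 12 fits, of Cemip in 4 and of Antxr2 in 10, and that of Csgalnact1 and Cdc42ep3 in 12.

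A pair of called genes carry a measured limit. The call of Myh7 (2.14 ± 0.42, adjusted p = 0.042) comes from the 4 libraries described above, its fitted size depends on the added 1, and 5 of 6 pairs were higher. Myh7 had at most 1 read in any OP9-Jag1 library, so it could only come out higher over OP9-Dll4. Its direction is therefore not a separate result. Gm4070 had the largest lower value over both times (-0.84 ± 0.13, adjusted p = 0.0096). It shares 95.8% of its 31-base words with Gvin1, so reads of the pair cannot be assigned with certainty. The difference of Gvin1 is given for 24 h alone, where it was 1.3 ± 0.25 in the other direction.

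Cholesterol and fatty acid genes formed the largest group by count. Of 30 measured members, 8 were called lower over OP9-Dll4 over both times, beside 44 of all 13886 genes (0.317%), and 0 higher. The median of the 30 was -0.15 against -0.0033 over all genes. The called members were Fdps, Idi1, Hmgcs1, Cyp51 and Sqle, which act along the route to cholesterol, Insig1 and Stard4, which act in sterol sensing and transport, and the desaturase gene Scd2. The group differed in time: 1 of 30 was called lower at 6 h (19 of 13886 genes, 0.137%) and 14 of 30 at 24 h (60 of 13886 genes, 0.432%), with medians of -0.06 and -0.23.

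Fdps, farnesyl diphosphate synthase, had 109, 123 and 124 at 6 h and 125, 110.3 and 166 at 24 h in the OP9-Dll4 libraries, against 116, 145 and 151 at 6 h and 171, 141 and 208 at 24 h in the OP9-Jag1 libraries. All 6 pairs were lower over OP9-Dll4 (-0.29 ± 0.04, adjusted p = 0.0025), while the ranges overlapped. Idi1, which makes the isomer that Fdps uses, was lower by the same amount at both times (-0.19 ± 0.04 at 6 h and -0.19 ± 0.04 at 24 h). Hmgcs1, whose promoter is printed above, differed by -0.15 ± 0.03 (adjusted p = 0.019).

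The largest differences of the group were in the stearoyl-CoA desaturase genes at 24 h. Scd1 had 223, 248 and 246 at 6 h and 239, 211 and 314 at 24 h in the OP9-Dll4 libraries, against 231, 254 and 262 at 6 h and 376, 346 and 488 at 24 h in the OP9-Jag1 libraries. At 6 h the groups overlapped (-0.06 ± 0.04, adjusted p = 0.73), and at 24 h they did not (-0.67 ± 0.04, adjusted p = 7.1e-08). Scd2 had 1536, 1120.5 and 1841 over OP9-Dll4 at 24 h against 2339.8, 1972 and 2730.0 over OP9-Jag1 (-0.66 ± 0.05, adjusted p = 2.4e-06), and -0.20 ± 0.05 at 6 h (adjusted p = 0.087). In both genes the difference itself changed between the times (Scd1 -0.61, adjusted p = 3.8e-05, and Scd2 -0.46, adjusted p = 0.011). The OP9-GFP libraries at 24 h held 296, 271 and 379 for Scd1, between the ligands in each numbered set.

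At 24 h the sterol-regulated transcription factor gene Srebf1 (-0.30) and the fatty acid elongase gene Elovl6 (-0.26) were also called lower. Across the 30 genes, 30, 28 and 29 were below 0 in pairs 1, 2 and 3 at 24 h, and 23, 17 and 27 at 6 h, while the median of all genes was within 0.01 of 0 in each pair. Ebp was the one member with a positive difference over both times. The count depends on the libraries. Over both times it was 3, 11 and 5 without pair 1, 2 or 3 at 6 h, and 2, 3 and 4 without pair 1, 2 or 3 at 24 h. At 24 h it was 7, 4 and 9 without pair 1, 2 or 3 of that time, and 9 with DESeq2.

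**Figure D2:**
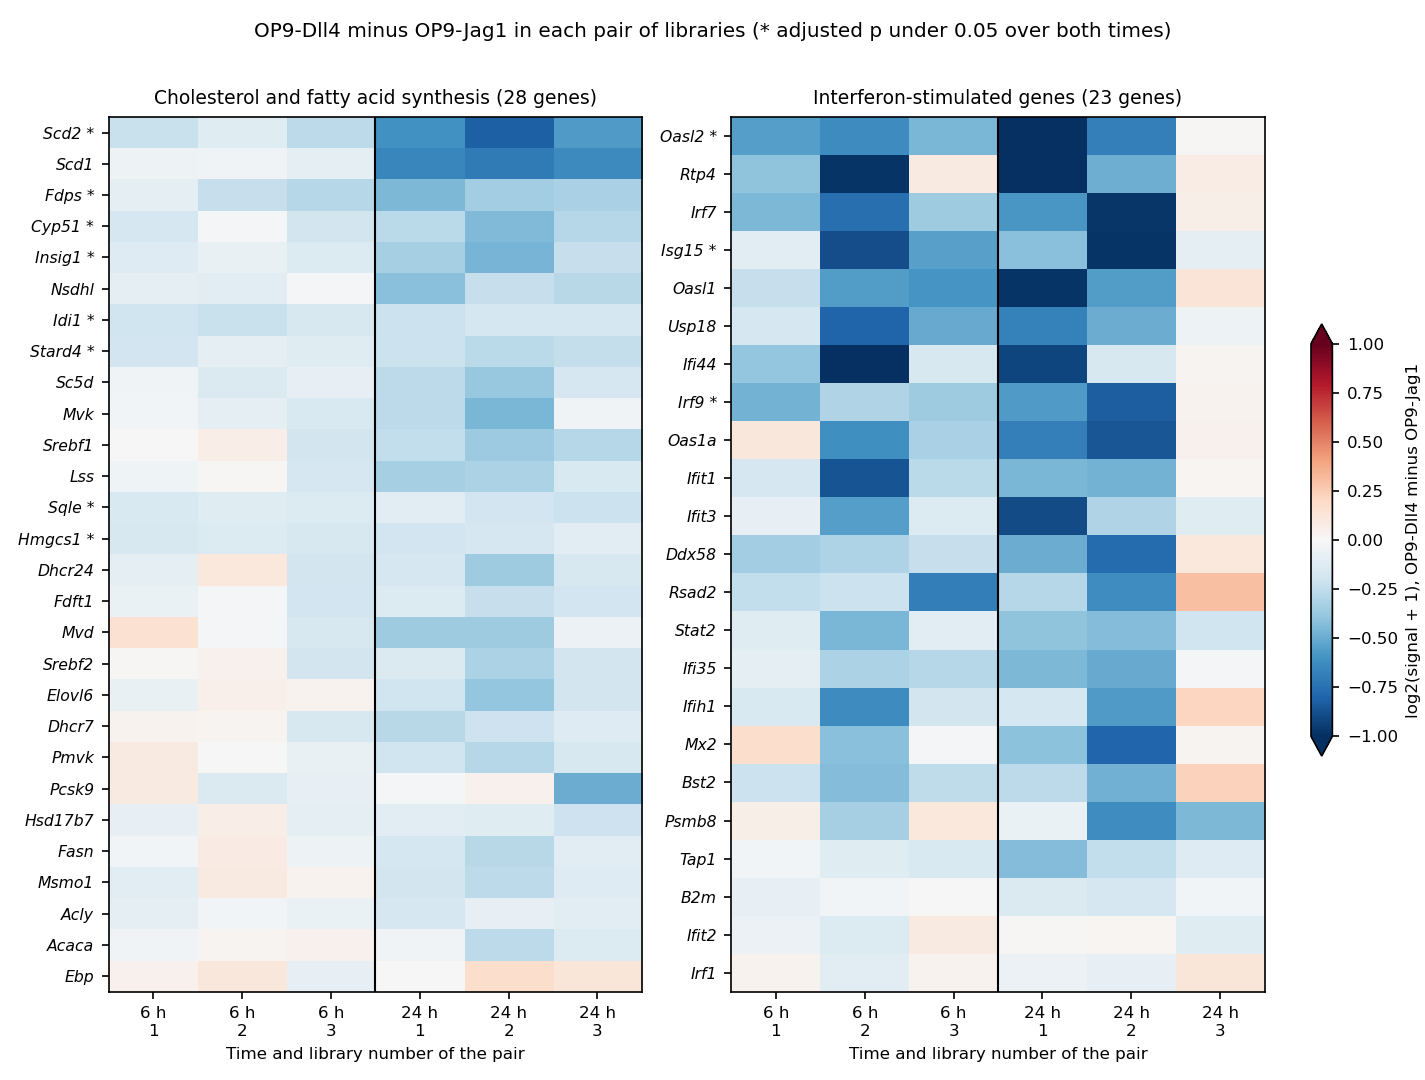
Difference of each OP9-Dll4 library from the OP9-Jag1 library of the same number (columns, 3 pairs at 6 h left of the line and 3 at 24 h right of it; colour, log2(signal + 1), blue for lower over OP9-Dll4, colours saturate at 1) for 28 of the cholesterol and fatty acid genes and 23 of the interferon-stimulated genes, with a star on called genes. The first group is mostly pale at 6 h and blue at 24 h, and the second is mostly blue in every pair but the last, pair 3 at 24 h.

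Interferon-stimulated genes were also lower over OP9-Dll4, with more spread. Over both times 4 of 24 measured members were called lower, Irf9, Oasl2 and Isg15 among them, beside 44 of all 13886 genes (0.317%), and 0 higher. The median of the 24 was -0.32 against -0.0033 over all genes. Within the times, 1 of 24 was called lower at 6 h, beside 0.137% of all genes. At 24 h 0 were called (18 at an unadjusted limma p under 0.05), beside 0.432% of all genes called lower. Irf9 is part of a factor that switches interferon-stimulated genes on, Oasl2 is a gene like the oligoadenylate synthetases and Isg15 a ubiquitin-like modifier. All 24 had a negative difference over both times, beside 7278 of all 13886 genes. In all 6 pairs 7 of 24 were below 0, against 3.02% of all genes.

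Isg15 had 15.7, 22.2 and 14.9 at 6 h and 13.6, 11.2 and 24.3 at 24 h in the OP9-Dll4 libraries, against 17.0, 41.8 and 22.1 at 6 h and 18.5, 23.2 and 25.9 at 24 h in the OP9-Jag1 libraries. OP9-Dll4 library 3 at 24 h, at 24.3, was the highest of its group and close to its partner (-0.51 ± 0.10, adjusted p = 0.043). Oasl2 showed the same library more clearly, with 3.72, 5.40 and 14.2 over OP9-Dll4 at 24 h against 9.12, 9.26 and 14.1 over OP9-Jag1 (-0.57 ± 0.10, adjusted p = 0.029).

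The median of the 24 genes was -0.16, -0.45 and -0.24 in the pairs at 6 h, and -0.44, -0.50 and 0.02 at 24 h, where 9 of 24 were below 0 in pair 3. The number called followed the libraries: 0 or 1 with any pair left out other than pair 3 at 24 h, and 10 without that pair. A further 5 genes outside the list with known links to the interferon response, Rnf213 (-0.23 ± 0.04), Helz2 (-0.26 ± 0.05), Ube2l6 (-0.27 ± 0.05), Trim12c (-0.38 ± 0.07) and Apol9a (-0.61 ± 0.12), were called lower as well. They were picked out after their values were seen.

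The ligands were also compared within each time. At 6 h, 47 genes were higher over OP9-Dll4 (0.338%) and 19 lower (0.137%), which makes 0.475% in all. At 24 h, 27 were higher (0.194%) and 60 lower (0.432%), or 0.627% in all. Of these, 8 genes were called at both times in one direction (Ltbp2 higher, the others lower, Nrarp, Tuft1, Il33 and H19 among them), and 1, Cyp1b1, in opposite directions. The 6 h count rests on the samples in the fit: it was 0 when the 6 OP9-GFP libraries entered the same fit, 22 to 23 without pair 3 and 15 higher and 10 lower with DESeq2.

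The genes higher over OP9-Dll4 at 6 h were of another kind than the rest. Only 17 of the 47 were annotated as protein coding (36.2%), against 88.8% of all genes and 16 of the 19 lower ones. The other 30 carried another biotype in the annotation. CT010467.1, annotated as ribosomal RNA on chromosome 17, had 276, 293 and 354 over OP9-Dll4 at 6 h, against 141, 140.3 and 129.5 over OP9-Jag1, and 182, 135 and 132 over OP9-Dll4 at 24 h, against 242, 110.3 and 149 over OP9-Jag1. The feeders were far apart at 6 h (1.16 ± 0.10, adjusted p = 6e-05) and overlapped at 24 h, and the OP9-GFP libraries at 6 h spread from 34.0 to 140.0. Gm42418 was higher by 0.44 ± 0.07 at 6 h. The mitochondrial share of the signal at 6 h was 2.08%, 3.22% and 2.68% over OP9-Dll4 and 2.09%, 2.83% and 2.27% over OP9-Jag1. The part of ribosomal and mitochondrial RNA in the other 6 h calls was not tested. Among protein-coding genes, the thrombospondin gene Thbs2 (0.77 ± 0.15), the cystine transporter gene Slc7a11 (0.45 ± 0.08) and the pentraxin gene Ptx3 (0.35 ± 0.06) were higher at 6 h.

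At 24 h the higher genes included the chemokine genes Ccl2 (0.29 ± 0.04) and Ccl7 (0.35 ± 0.06) beside Edn1 and Cemip. Of the 9 measured cardiomyocyte markers 6 were called higher, against 0.194% of all genes. The count of markers was 5 with edgeR, 0 with DESeq2 (5 at an unadjusted p under 0.05) and 3 to 6 with 1 library left out. It was 3 without pair 1 and 4 without pair 2 at 24 h. Only 9 of the 20 listed markers were measured. Actc1 and Myl2 had 0 reads in every OP9-Jag1 and OP9-GFP library. Myh7 had at most 1 read in any OP9-Jag1 library and at most 2 in any OP9-GFP library. The place of these genes among the 9 rests on OP9-Dll4 libraries, so they could only come out higher there. The count is therefore not separate from the reads described above. The lower genes included the basement membrane collagen gene Col15a1 (-1.04 ± 0.11), the semaphorin receptor gene Plxnd1 (-0.55 ± 0.09), the cell cycle inhibitor gene Cdkn1a (-0.30 ± 0.06) and the growth factor gene Tgfb2 (-0.30 ± 0.04). Col15a1 had 6.29, 6.23 and 5.85 in the OP9-Dll4 libraries at 24 h against 15.8, 11.3 and 14.4 in the OP9-Jag1 libraries, with no overlap, and overlapped at 6 h.

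A test of the change in the difference from 6 h to 24 h called 14 genes (0.101%), 3 with a more positive value at 24 h (0.0216%) and 11 with a more negative one (0.0792%). In 10 of the 14 the difference had opposite signs at 6 h and 24 h. The 14 were called on that change, which favours opposite signs, and the share of all genes was not computed. The count of 10 is therefore not a result about these genes. Cyp1b1, a cytochrome P450 gene, had 141, 326 and 159 at 6 h and 109.9, 110.2 and 121 at 24 h in the OP9-Dll4 libraries, against 127, 228 and 114 at 6 h and 147, 123 and 159 at 24 h in the OP9-Jag1 libraries. Every pair was higher over OP9-Dll4 at 6 h (0.38 ± 0.06, adjusted p = 0.014) and lower at 24 h (-0.32 ± 0.06, adjusted p = 0.031). Abca1, the cholesterol efflux transporter, had a difference of 0.11 ± 0.05 at 6 h and of -0.40 ± 0.05 at 24 h. Of the 6 Notch targets 0 were called in this test with limma, edgeR or DESeq2, and 3 had an unadjusted limma p under 0.05. Hes1 was one of the 3, with a 95% interval of 0.06 to 0.34 for the change (adjusted p = 0.39).

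**Figure D3:**
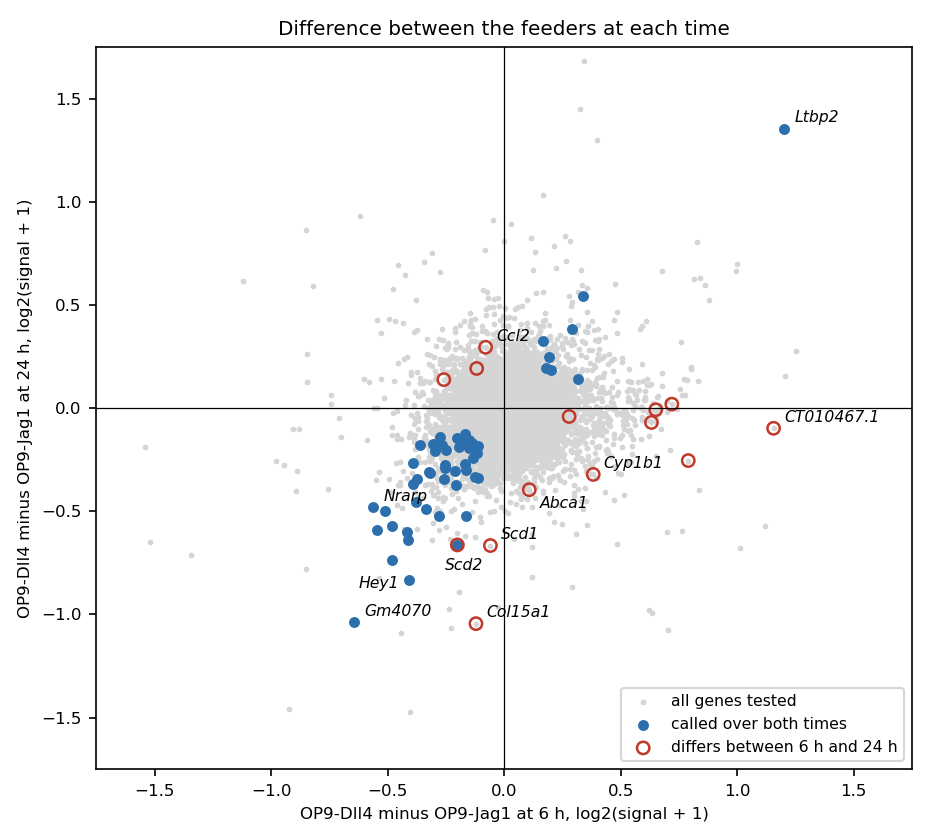
Difference between the feeders (OP9-Dll4 minus OP9-Jag1, log2(signal + 1)) at 6 h on the x axis and at 24 h on the y axis for all genes (grey), with genes called over both times filled blue and the 14 genes whose difference changed between the times circled. Called genes lie in the quadrants of equal sign, mostly the lower left one, and the circled genes mostly below them on the right; 5 genes lie outside the axes, 1 of them called over both times (Myh7).

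Coated wells gave the same pair of ligands in libraries that share no sample with the co-cultures. There rDLL4 was set against rJAG1, and 65 of 13407 genes were higher on rDLL4 (0.485%) and 53 lower (0.395%), 0.88% in all. The coated amounts are not given in the sources used here, so ligand, tag and dose cannot be told apart.

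All 44 genes lower over OP9-Dll4 were listed there. Of these, 25 had the same sign, beside 6625 of all 13407 genes with a negative difference there. Among the 44, 9 were called lower on rDLL4 and 0 higher, where 0.395% of all genes were called lower. The 9 were Nrarp, Hey1, Hey2, Tuft1, Il33, H19, Trib2, Prag1, which encodes a pseudokinase, and Lxn, a carboxypeptidase inhibitor. Of the 9 higher genes, 7 were listed, 6 had the same sign and 1, Csgalnact1, was called higher. Of all 13407 genes, 6782 had a positive difference there.

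Hey1 had 6.46, 6.01 and 5.19 on rDLL4 and 15.7, 19.2 and 13.2 on rJAG1 (-1.29 ± 0.14, adjusted p = 0.0013), and 0.748 to 0.816 with DMSO alone. Nrarp had 11.4, 5.00 and 8.30 on rDLL4 and 25.8, 15.8 and 17.2 on rJAG1 (-1.19 ± 0.15, adjusted p = 0.0024), and 2.68 to 3.70 with DMSO. Both ligand groups lay above DMSO and did not overlap with each other.

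Tuft1 had 119, 109 and 114 on rDLL4 and 159.7, 175 and 163 on rJAG1 (-0.54 ± 0.06, adjusted p = 0.0013), and 38.6 to 42.8 with DMSO. Heyl, not called between the feeders, was called here with 1.13, 1.33 and 0.932 on rDLL4 and 4.59, 4.25 and 6.59 on rJAG1 (-1.51 ± 0.16, adjusted p = 0.0013). Of the 6 measured Notch targets, 4 were called lower on rDLL4, against 0.395% of all genes. The median of the 6 was -0.97 against 0.0018 over all genes. Hes1 again did not pass, at 52.3, 53.6 and 44.9 on rDLL4 and 65.4, 80.6 and 48.5 on rJAG1 (-0.34 ± 0.12, adjusted p = 0.29).

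The metabolic and interferon groups had no called member on recombinant ligand by limma. Of the 30 cholesterol and fatty acid genes 0 were called (6 at an unadjusted p under 0.05), with a median of 0.05. Of the 23 interferon-stimulated genes listed there 0 were called (8 at an unadjusted p under 0.05), with a median of 0.23. Whether either group differs between the 2 kinds of ligand presentation was not tested. Csgalnact1 had 33.2, 32.9 and 27.0 on rDLL4 and 21.0, 20.2 and 19.9 on rJAG1 (0.58 ± 0.09, adjusted p = 0.0055), and 40.3 to 59.6 with DMSO. Edn1 had the same sign as over the feeders but did not pass (0.36 ± 0.14, adjusted p = 0.34), and Ltbp2 was not analysed there.

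**Figure D4:**
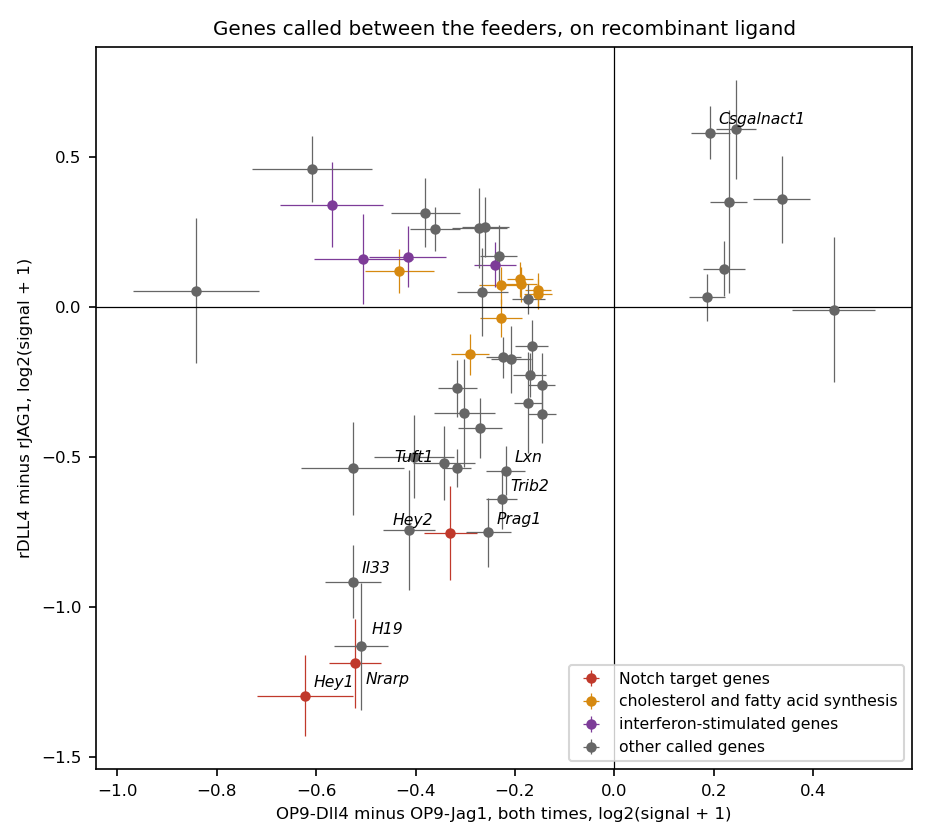
Difference on recombinant ligand (rDLL4 minus rJAG1, y axis) against the difference over feeders (OP9-Dll4 minus OP9-Jag1, both times, x axis), both on the log2(signal + 1) scale with bars of 1 standard error, for the 51 called genes listed in both tables; names mark the 10 genes called in both. The Notch targets Hey1, Nrarp and Hey2 lie at the lower left, and the called cholesterol and interferon genes lie higher on the y axis than these 3.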

How the data were processed

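Per the labels' protocols, a PicoPure kit gave the RNA and NEBNext Ultra the libraries. Per the submitters' processing notes, limma, RSEM, cutadapt and FastQC were used, without versions, on build GRCm38. The strand setting and annotation release are not stated there. The authors deposited a normalized signal per gene for each experiment. In the co-culture table each deposited signal equals a whole number of reads plus 0.5 over a scaled library size (100% of values within 0.01 reads), so reads could be recovered there.

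Values were taken as log2(signal + 1) and fitted by limma 3.58.1 under R 4.3.3 (mean-variance trend, Benjamini-Hochberg over all 13886 genes, or 13407 for recombinant ligands), with library number within time as a block. Same-numbered libraries, numbered in the titles, deviated together from their group means (correlations 0.19 to 0.65 at 6 h, 0.31 to 0.40 at 24 h and 0.11 to 0.27 for recombinant ligands, all above 0.1), and by that limit the numbers were taken to pair the samples. Libraries with different numbers gave -0.56 to 0.19 at 6 h, -0.25 to -0.10 at 24 h and -0.31 to 0.11 for recombinant ligands, so at 6 h library 3 of OP9-Dll4 correlated as well with library 1 of OP9-Jag1 (0.19) as with library 3. All 15 recombinant-experiment libraries, those with the inhibitor RO4929097 included, shared 1 fit and 1 estimate of the spread. No 2 libraries of a group agreed within sampling noise, and all deposited genes were tested.

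Named were the 12 largest called differences with 6 concordant pairs in each direction, all measured Notch targets, ligands and receptors, all called list members and the 3 genes with the smallest adjusted p between the times; other genes were named after their values were seen, and a few that the rule names are not reported here. The comparison, the 36 gene lists and the tests were chosen with earlier results of these data known. Symbols and positions come from the GENCODE annotation of GRCm38 and promoters from RefSeq. Alternatives were the pseudocount, a filter on low signal, quantile normalization, the block, library weights, all 18 co-culture libraries, edgeR 4.0.16 and DESeq2 1.42.0 on recovered reads, and leaving out each library. A floor of 3 reads is the upper limit that 0 reads allow at 95% confidence and covers counting error only.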

Additional observations from a re-analysis of the deposited data

Results flagged for a closer look

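Among 50 named genes, 3 had 1 pair whose difference lay far outside the other 5 pairs, where chance alone would flag about 1 in 20 genes. Postn was lower over OP9-Dll4 by more in pair 1 at 24 h (-1.01) than in the other pairs (-0.52 to -0.28). Jag1 was higher over OP9-Dll4 in pair 2 at 6 h (0.10) and lower in the others (-0.19 to -0.08). Notch2 was higher in the same pair (0.22), against -0.04 to 0.03 in the others.

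The difference between the feeders changed between 6 h and 24 h in 14 genes (limma, adjusted p under 0.05 for the change itself, given as the value at 24 h minus that at 6 h). It became more negative for Scd1 (-0.61), CT010467.1 (-1.25), Cyp1b1 (-0.70), Abca1 (-0.50), Scd2 (-0.46), Prss23os (-0.70), Syn3 (-0.70), Lars2 (-0.32), Gm11991 (-0.66), Col15a1 (-0.92) and 1700022I11Rik (-1.04). It became more positive for Ccl2 (0.37), Rpl12 (0.40) and Krt14 (0.31).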

How the results depend on the processing

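The counts of called genes depended most on the pairing. With no replicate block, 1 gene was called over both times, 0 at 6 h, 0 at 24 h, 0 for the change between the times and 31 for recombinant ligand, where the paired fits gave 53, 66, 87, 14 and 118; 339, 275, 259 and 209 genes had an unadjusted p under 0.05 in the 4 co-culture fits. A replicate block with 1 effect per number over both times gave 3, 0, 1 and 0. All 18 co-culture libraries gave 0 at 6 h and 4 for the change. DESeq2 gave 25 at 6 h and 36 at 24 h, library weights 152 at 24 h, and a mean signal of at least 5 gave 24 for the change. The other settings moved these counts by less than 1.5 times: over both times edgeR called 62 genes and shared 49 of the 53, and DESeq2 called 47 and shared 37. No called gene named here changed sign under these settings. Leaving out 1 library gave 19 to 51 genes over both times, 22 to 89 at 6 h, 31 to 131 at 24 h, 6 to 30 for the change and 46 to 112 for recombinant ligand. Since a library without its partner drops out of the paired fit, the 12 fits are in effect 6. Over both times pair 2 at 24 h gave 19, pair 1 at 24 h 20 to 21, pair 3 at 6 h 31 and pair 1 at 6 h 33 to 34.

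Signs turned only in genes that passed in no setting: Jag2 (0.0069 with quantile normalization, 0.00030 with weights, 0.0060 with edgeR and 0.0014 with DESeq2) and Cyp1b1 over both times (-0.0198 with weights). Leaving out 1 library gave -0.081 to 0.019 for Bcl6, -0.066 to 0.12 for Cyp1b1, -0.12 to 0.021 for Dlk1, -0.044 to 0.038 for Jag2 and -0.0046 to 0.048 for Notch2. The cause was not tested. edgeR on the recombinant table was not run, because whole reads were not recovered for 3 of its 15 libraries. Having 3 libraries per group limits the precision, and differences in genes near 0.2 signal were not detectable at this depth.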
